A study of Mus musculus with 4 samples.

Results

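Among the 23282 rows counted in primary mouse pancreatic acinar cells, 71 genes were nearly or wholly without reads when the cells carried a green fluorescent protein (GFP) virus and had reads in both libraries when they carried estrogen-related receptor γ (ERRγ, gene Esrrg). The members were chosen by raw counts: at most 5 counts over both GFP libraries together, and at least 10 in each ERRγ library. These limits were met by 98 rows, of which 27 belong to prolactin, pregnancy glycoprotein, homeobox, cytochrome P450 and other families, or to 6 single genes, that were set aside by name. The 71 that remain come from many families and are ordered here by what their products do. Because the counts chose them, their levels and ratios between the viruses are a description and carry no test.

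ERRγ is a nuclear receptor without a known natural hormone. It binds DNA at elements whose core letters are AAGGTCA, and is best known for genes of oxidative metabolism in heart, muscle and other tissues with a high energy demand. Acinar cells make and secrete the digestive enzymes of the pancreas. Many of the members are known from tissues other than the pancreas, and the usual site or role of each product is given as background.

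The study compared 2 groups of primary acinar cells from the pancreas of C57BL/6J mice, each with 2 libraries, numbered 1 and 2. The first group received an adenovirus encoding ERRγ, which its labels call an overexpression genotype. The second received an adenovirus encoding GFP as the control. Both were infected at a multiplicity of 100, kept in medium with 2.5% serum, trypsin inhibitor and 25 ng/ml human epidermal growth factor (EGF), and collected 36 h after the virus. Whether the libraries numbered 1 and 2 stem from different animals or cultures is not in the labels; the spread behind each p-value may therefore be technical. Libraries were made from 500 ng of total RNA with a kit that primes on the poly(A) tail, so that a read marks a transcript end.

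Counts totalled 10480878 and 10645277 in ERRγ libraries 1 and 2, against 10105604 and 11012351 in GFP libraries 1 and 2. Esrrg itself had 1453 and 12994 counts in the ERRγ libraries, against 86 and 107 in the GFP libraries. The carried gene thus differed 9.90-fold between the 2 ERRγ libraries, with library 2 the higher, measured in CPM, which are counts scaled to a common library total after TMM adjustment. Of 15 acinar markers, the defining factor Ptf1a had no count in any library, and the list summed to 102.7 and 102.4 CPM in the ERRγ libraries, against 113.6 and 51.2 CPM in the GFP libraries. The list of 12 duct or injured-epithelium markers, which include keratins and Clu, summed to 25680 and 31644 CPM in the ERRγ libraries, against 33827 and 35326 CPM in the GFP libraries. Most of each sum was Clu alone, with 18380 and 23160 CPM in the ERRγ libraries, against 22820 and 24660 CPM in the GFP libraries. Transcripts of the labelled cell type were thus few in both groups. From all 27 cell and tissue lists 152 markers were tested, leaving out the 3 that are also among the 71. Of these 152, 5 (3.29%) rose (Prl3d1, Fabp4, Nppb, Cftr and Prss2) and 5 (3.29%) fell (Krt7, Krt8, Cd14, Acta1 and Mcam). Over all rows tested, 5.06% rose and 1.78% fell. One of these 10 markers, Prl3d1, itself met the count limits and was set aside by family name, so nothing is read from its rise. Without GFP library 1 or GFP library 2, Prl3d1 alone among these 10 passed in both fits, with adjusted p = 0.0181 and 0.0159 (edgeR's quasi-likelihood test with Benjamini-Hochberg adjustment); Acta1, with 0.148 and 0.0416, passed in the second only. The part of other cell types in the results that follow was not tested.

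In total the 71 genes held 2434 and 2320 counts in the ERRγ libraries, against 92 and 80 in the GFP libraries. This comes to 232 and 218 CPM on unscaled totals in the ERRγ libraries, against 9.10 and 7.26 in the GFP libraries. A member had between 21 and 345 counts over both ERRγ libraries, with a median of 42; 12 members had 100 or more and 19 had fewer than 30. Over both GFP libraries, 17 members had no count, 28 had 1 to 3 and 26 had 4 or 5. A count of 0 in a library allows up to 3 counts, which is 0.307 CPM in GFP library 1 and 0.269 CPM in GFP library 2, so a count of 0 does not show absence. In these bulk samples fewer cells of a type and less RNA per cell cannot be told apart. All intervals and floors cover counting error only, since no molecular identifiers are mentioned.

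The filter on low counts kept 69 of the 71 for the test across all rows; 4930546K05Rik and Fras1 were not kept. Of these 69, 42 were called higher with ERRγ by edgeR's quasi-likelihood test at an adjusted p under 0.05, where 5.06% of all 13070 rows tested rose and 6.84% were called in either direction. The same contrast chose the members, so nothing is read from this count. It was 7 without GFP library 1, where 0.727% of all rows tested were called, and 9 without GFP library 2, where 1.02% were. With the groups exchanged, 14 rows met the count limits, among them Ptx3 with 2 and 0 counts in the ERRγ libraries, against 19 and 23 in the GFP libraries.

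**Figure D1:**
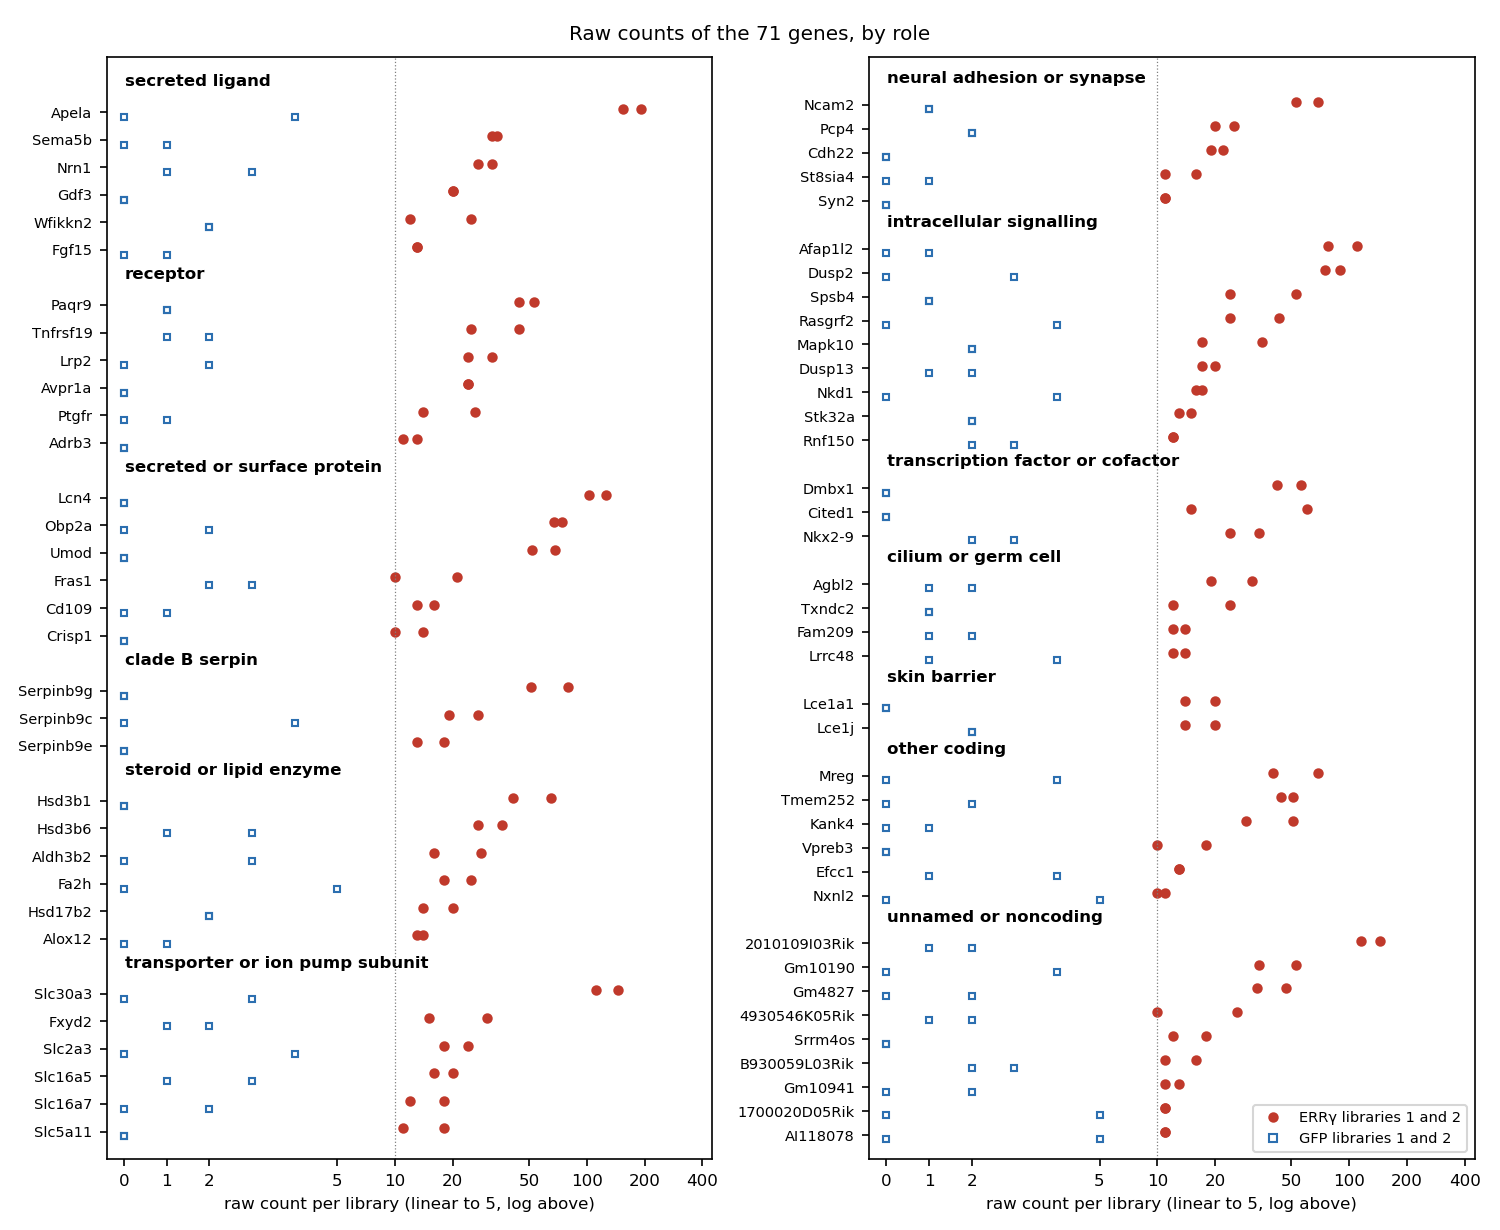
Raw counts of the 71 genes by role, with 2 ERRγ libraries (filled circles) and 2 GFP libraries (open squares) on an axis that is linear to 5 and logarithmic above; equal counts overlie each other. Each ERRγ count is at or right of the dotted line at 10 and each GFP count is at or below 5, as the choice of members requires.

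**Figure D2:**
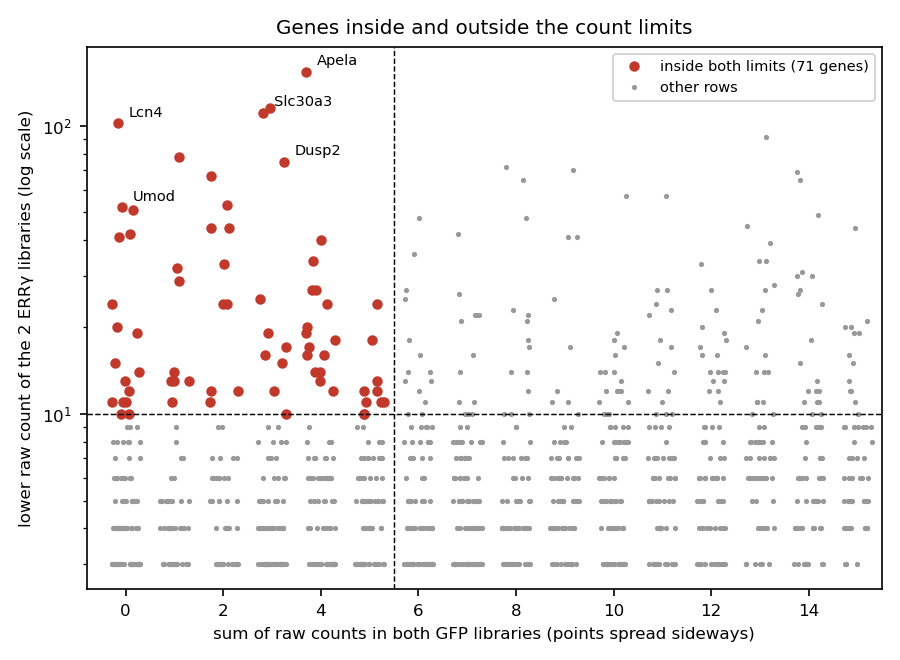
The sum of raw counts in both GFP libraries (horizontal axis, points spread sideways) against the lower count of the 2 ERRγ libraries (vertical log axis), with the limits as dashed lines. The 71 genes fill the upper left corner, and single-count steps separate those at the limits from rows just outside.

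The limits cut through a continuous spread of counts. Just inside the GFP limit, with a GFP sum of 5, lay 10 members. Fras1, with 21 and 10 ERRγ counts against 2 and 3 GFP counts, lay at both limits. Just outside it, with a GFP sum of 6, lay 14 rows. Rnf186 among them had 13 and 398 counts in the ERRγ libraries, against 3 and 3 in the GFP libraries. Gfra1 had 36 and 60 ERRγ counts against 6 and 0 GFP counts. At the ERRγ limit, 5 members had a lower count of exactly 10 (Fras1, 4930546K05Rik, Vpreb3, Crisp1 and Nxnl2), and 11 rows stood outside with a lower count of 9. One of those, Aqp3, had 29 and 9 ERRγ counts against 1 and 4 GFP counts.

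The promoters of 3 serpin genes are shown because these members lie in 1 cluster on chromosome 13, and that of Slc5a11 because its match to the ERR core lies nearest to a start site. The sequences are RefSeq's for GRCm38.p6, run from 250 bases before to 50 after each gene's start, and are read 5′ to 3′ on the gene's strand. Capitals mark TGACCTT, which is AAGGTCA read on the opposite strand. They lie at chr13:33484540-33484839 (plus strand) for Serpinb9g, chr13:33249358-33249657 (plus strand) for Serpinb9e, chr13:33159705-33160004 (minus strand) for Serpinb9c and chr7:123214616-123214915 (plus strand) for Slc5a11.
Serpinb9g: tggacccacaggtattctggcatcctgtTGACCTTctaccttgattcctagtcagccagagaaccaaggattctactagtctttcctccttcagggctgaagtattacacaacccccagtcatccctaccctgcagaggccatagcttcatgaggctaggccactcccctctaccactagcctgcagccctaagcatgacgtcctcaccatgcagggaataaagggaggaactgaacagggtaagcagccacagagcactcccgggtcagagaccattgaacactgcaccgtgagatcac
Serpinb9e: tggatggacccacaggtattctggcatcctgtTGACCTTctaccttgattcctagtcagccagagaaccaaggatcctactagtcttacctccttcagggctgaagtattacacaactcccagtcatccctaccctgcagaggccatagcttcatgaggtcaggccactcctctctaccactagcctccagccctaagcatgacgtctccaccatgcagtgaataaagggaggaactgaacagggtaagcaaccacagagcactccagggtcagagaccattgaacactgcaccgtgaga
Serpinb9c: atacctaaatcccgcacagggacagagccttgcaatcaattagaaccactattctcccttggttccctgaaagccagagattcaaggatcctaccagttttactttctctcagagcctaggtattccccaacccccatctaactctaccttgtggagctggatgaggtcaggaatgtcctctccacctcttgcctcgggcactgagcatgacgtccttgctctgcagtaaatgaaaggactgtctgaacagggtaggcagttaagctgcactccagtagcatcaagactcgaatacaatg
Slc5a11: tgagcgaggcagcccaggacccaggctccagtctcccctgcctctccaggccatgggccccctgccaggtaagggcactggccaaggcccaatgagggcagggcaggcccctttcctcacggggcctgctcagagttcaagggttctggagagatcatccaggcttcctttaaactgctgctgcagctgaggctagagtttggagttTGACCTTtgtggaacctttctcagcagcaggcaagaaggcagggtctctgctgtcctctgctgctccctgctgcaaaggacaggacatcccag

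The Serpinb9g and Serpinb9e windows were 93.4% identical when aligned and carried the match at nearly the same place, its first base 222 bases before the start in Serpinb9g and 218 in Serpinb9e. The Serpinb9c window was 59.9% identical to that of Serpinb9g and had no match. Windows from different families, aligned in the same way, ranged between 40.3% (Cited1 and Serpinb9c) and 46.1% (Agbl2 and Slc5a11). RefSeq gave a promoter for 50 of the 71 genes, and 5 of these 50 (10%) held AAGGTCA on either strand: Agbl2, Slc5a11, Serpinb9e, Serpinb9g and Cited1. The same letters stood in 5.38% of the 27025 genes of the promoter table. Since the Serpinb9e and Serpinb9g windows are near copies, their matches are not independent. The longer element TNAAGGTCA, which contains AAGGTCA, stood in 0 of the 50 and in 1.43% of all genes; TCAAGGTCA stood in 0 of the 50 and in 0.466%. A match is a description of letters and not of binding, and no match says only that these letters are not in this window.

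Secreted ligands or their antagonists make up 6 members, and Apela had the most ERRγ counts of all 71. Apela (chr8:65028417-65037336, minus strand) encodes a peptide hormone of the early embryo that acts on the apelin receptor. It had 191 and 154 counts in the ERRγ libraries, against 4 and 0 in the GFP libraries, a mean of 16.1 ± 1.29 CPM with ERRγ (SD, n = 2) and a ratio of 78.8. All 4 GFP reads were in library 1, and leaving out GFP library 2 gave a ratio of 39.4 and leaving out GFP library 1 gave at least 59.9. Markers of oocyte or early embryo gave little signal: 11 of 16 had no count in any library, among them Zp3, Zfp42 and Tdgf1, and the list summed to 7.39 and 6.91 CPM with ERRγ, against 3.27 and 3.32 CPM with GFP. The receptor of the Apela peptide, Aplnr, had 2 and 15 counts in the ERRγ libraries, against 0 and 12 in the GFP libraries, so the groups overlapped. Gdf3 (chr6:122605403-122610087), a TGF-β family ligand of pluripotent cells, had 20 and 20 ERRγ counts and none in either GFP library, which puts it at least 6.52-fold higher with ERRγ when the GFP level is set at 3 counts in each library. Sema5b, a membrane semaphorin that steers growing axons, had 32 and 34 ERRγ counts against 1 and 0 GFP counts. Nrn1, neuritin, which promotes neurite growth, had 32 and 27 ERRγ counts against 1 and 3 GFP counts. Nrn1 overlaps Fars2 on the opposite strand, and Fars2 had 183 and 149 counts with ERRγ, against 137 and 140 with GFP; the use of strand in counting is not given in the sources used here. Wfikkn2, a secreted inhibitor of myostatin and GDF11, had 25 and 12 ERRγ counts against 2 and 2 GFP counts. Fgf15, the intestinal hormone that restrains bile acid synthesis, was the lowest of the 6 in ERRγ counts; the genes of its receptor complex stayed low, with 17 and 13 ERRγ counts against 10 and 22 GFP counts for Fgfr4, and 0 and 1 against 0 and 0 for Klb.

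Cell-surface receptors make up 6 members. Paqr9 (chr9:95559657-95568023), of the membrane progestin receptor family, had 53 and 44 counts with ERRγ, against 1 and 1 with GFP, a ratio of 47.2 (exact 95% counting interval, 12.8 to 398). Tnfrsf19, also called TROY, a TNF receptor family member of developing epithelium and brain, had 25 and 44 ERRγ counts against 1 and 2 GFP counts. Avpr1a, the vasopressin V1a receptor, had 24 and 24 ERRγ counts but no GFP count, which puts it at least 7.83-fold higher with ERRγ. The 2 ERRγ libraries matched each other for Avpr1a, while Ptgfr, the prostaglandin F2α receptor, had 26 and 14 counts against 0 and 1 with GFP. Adrb3, the β-adrenergic receptor of fat cells, had no GFP count and ERRγ counts near the lower limit. Ucp1, the heat-producing carrier of brown fat, had 8 and 13 ERRγ counts and none with GFP, under the limit for the 71. In the list of 13 adipocyte markers Lep and Plin1 were at 0 in every library, and 5 could be tested. Fabp4, a fatty acid carrier, was called, and Cidea, Pparg, Pnpla2 and Lpl were not, although all 5 were higher with ERRγ at an unadjusted p under 0.05; DESeq2 called 2. The Fabp4 call was lost without GFP library 1 (adjusted p = 0.193) and without GFP library 2 (0.0833). The list summed to 156 and 139.7 CPM with ERRγ, against 82.3 and 95.9 CPM with GFP. Most of each sum was Pnpla2 alone, with 107.5 and 106.3 CPM with ERRγ, against 69.4 and 84.0 CPM with GFP.

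Lrp2 (chr2:69424340-69586065, minus strand) encodes megalin, the endocytic receptor of the kidney proximal tubule, and had 32 and 24 counts with ERRγ, against 2 and 0 with GFP (ratio 25.5, interval 7.25 to 232). Its partners in protein uptake were looked up after the values of the 71 were known. Amn, the membrane anchor of cubilin, rose: it had 111 and 101 ERRγ counts against 11 and 6 GFP counts, a log2 fold change of 3.58 (SE 0.46, adjusted p = 0.00498). Without GFP library 1 the adjusted p for Amn was 0.0414 and without GFP library 2 it was 0.0589. Cubilin itself, Cubn, had 8 and 5 ERRγ counts against 9 and 5 GFP counts, and the adaptor Dab2 had 23 and 16 against 45 and 34 with no call (adjusted p = 0.244). The groups did not overlap for Amn, which was higher with ERRγ, nor for Dab2, which was lower with ERRγ, and overlapped for Cubn. The share of all rows without overlap was not counted, so nothing is read from this separation.

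Another 6 members are secreted or surface proteins, and 3 of these had no GFP count. Lcn4 (chr2:26667674-26671282, minus strand), a lipocalin of nasal glands that carries small lipophilic molecules, had 125 and 102 ERRγ counts but no GFP count, which puts it at least 36.8-fold higher, the highest such bound among the 17 members without a GFP count. Obp2a (chr2:25700043-25703326), an odorant-binding lipocalin, had 74 and 67 ERRγ counts against 0 and 2 GFP counts, or 6.6 ± 0.0116 CPM with ERRγ (SD, n = 2). For both lipocalin genes the counts in the 2 ERRγ libraries lay close together, but counting error was wide. The exact 95% binomial interval for the share of ERRγ counts in library 1 ran between 43.91% and 60.95% for Obp2a. For Lcn4 it ran between 48.34% and 61.65%. The small SD of Obp2a therefore does not show a precisely known level. Umod (chr7:119462711-119479282, minus strand), uromodulin, the most abundant protein of normal urine and a product of the kidney thick ascending limb, had 52 and 68 ERRγ counts but no GFP count, which puts it at least 19.7-fold higher. In the list of 15 kidney tubule markers, 7 were at 0 in every library, among them Slc34a1, Aqp2, Slc22a6 and Kap, and the 2 that could be tested were Umod and Lrp2. Without Umod and Lrp2, which the counts chose, the list summed to 1.87 and 3.26 CPM in the ERRγ libraries, against 2.04 and 1.52 CPM in the GFP libraries, and the groups overlapped. Crisp1, a sperm-coating protein of the epididymis, also had no GFP count; the matrix protein gene Fras1 and Cd109, a surface protein that binds TGF-β, completed this group, with between 24 and 31 counts over both ERRγ libraries for these 3.

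The 3 clade B serpins are inhibitors of serine proteases inside the cell, and lie in 1 cluster on chromosome 13. Serpinb9g (chr13:33484790-33496004) had 80 and 51 ERRγ counts but no GFP count, which puts it at least 21.1-fold higher. Serpinb9c had 27 and 19 ERRγ counts against 4 and 0 GFP counts. Serpinb9e, given here after its values were seen, had 18 and 13 ERRγ counts and none with GFP. Gaps of 89.9 kb and 223.9 kb separate the 3 genes in the order c, e, g. In the same group Serpinb9d had 8 and 5 ERRγ counts and Serpinb9f 9 and 6, against 0 and 0 for Serpinb9d and 0 and 2 for Serpinb9f with GFP, both below the ERRγ limit. Serpinb9 and Serpinb9b differed in kind, being well expressed with either virus: Serpinb9 had 710 and 754 counts with ERRγ against 543 and 765 with GFP (adjusted p = 0.639 for a log2 fold change of 0.15, SE 0.16), and Serpinb9b had 2376 and 2191 against 2725 and 2791 (adjusted p = 0.221 for a log2 fold change of -0.30, SE 0.13). These paralogs are close copies, so reads may be shared among them and the single values are uncertain.

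**Figure D3:**
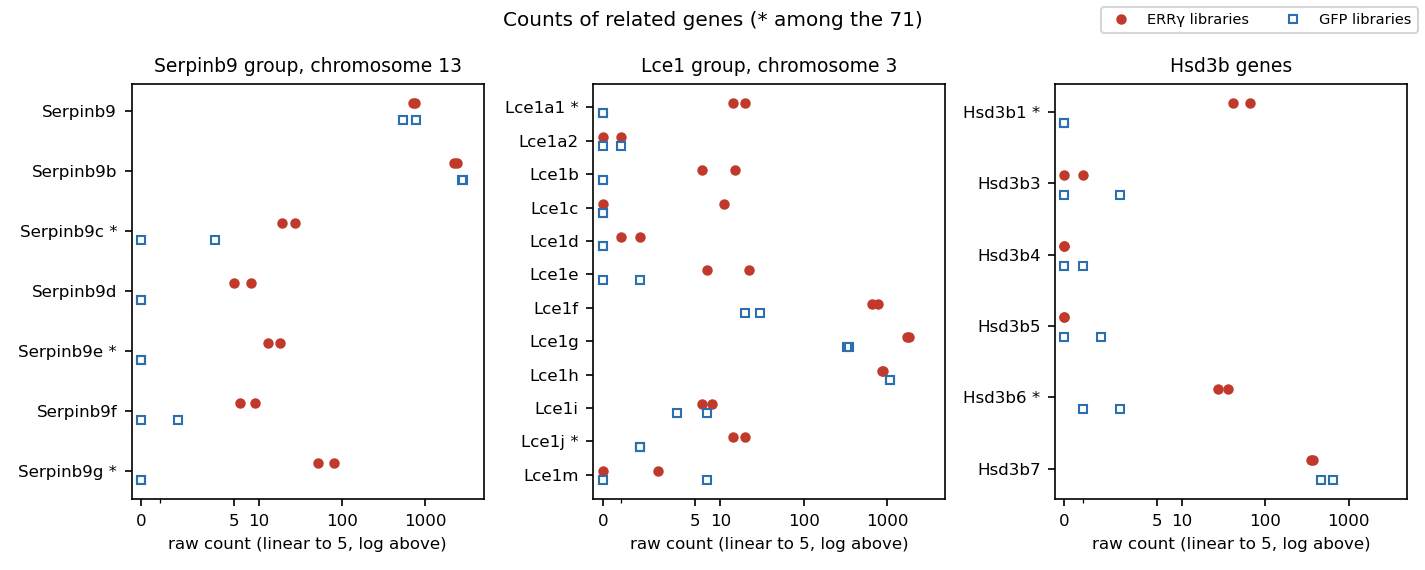
Raw counts of related genes in the 2 ERRγ libraries (filled circles) and the 2 GFP libraries (open squares), on an axis linear to 5 and logarithmic above; a star marks genes among the 71. Serpinb9, Serpinb9b, Lce1h and Hsd3b7 had 356 or more counts in each library, while the starred genes had at most 4 in a GFP library.

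Enzymes of steroids or lipids account for 6 members, led by a pair of neighbouring 3β-hydroxysteroid dehydrogenase genes that lie 37.8 kb apart on chromosome 3. These enzymes make progesterone and other Δ4 steroids in adrenal, gonad and placenta. Hsd3b1 (chr3:98852194-98859794, minus strand) had 65 and 41 ERRγ counts but no GFP count, which puts it at least 17.1-fold higher. Hsd3b6 (chr3:98805504-98814443, minus strand) had 36 and 27 ERRγ counts against 1 and 3 GFP counts, a ratio of 15.8 that became 10.9 with GFP library 1 left out and 28.7 with GFP library 2 left out. Reads may be shared between the 2 copies. The related Hsd3b7, a bile acid enzyme, had 368 and 356 ERRγ counts against 460 and 651 GFP counts and was not called (log2 fold change -0.63, SE 0.16, adjusted p = 0.0552). The genes that start steroid synthesis were not called either: Star had 134 and 76 ERRγ counts against 137 and 91 GFP counts (adjusted p = 0.813), and Cyp11a1 had 54 and 32 against 30 and 58 (adjusted p = 0.963). Of the 14 steroidogenic and pituitary markers, 6 had no count in any library, including Lhcgr and Mc2r, and the list without Hsd3b1 summed to 19.9 and 15.8 CPM with ERRγ, against 21.7 and 16.1 CPM with GFP. Aldh3b2, which oxidises fatty aldehydes, had 16 and 28 ERRγ counts against 0 and 3 GFP counts. Fa2h, the fatty acid 2-hydroxylase of myelin and skin, had 25 and 18 against 0 and 5, all of its GFP counts being in library 2. Hsd17b2, which inactivates estradiol, and Alox12, the platelet 12-lipoxygenase, had 27 to 34 counts over both ERRγ libraries.

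Among the 6 transporters and ion pump subunits, Slc30a3 (chr5:31086106-31108237, minus strand), which loads zinc into synaptic vesicles, had 145 and 111 ERRγ counts against 3 and 0 GFP counts, a ratio of 77.9 (interval 28.3 to 408). Fxyd2, the γ subunit of the kidney sodium pump, had 30 and 15 ERRγ counts against 2 and 1 GFP counts. Slc2a3, the neuronal glucose transporter GLUT3, had 18 and 24 ERRγ counts against 4 and 0 GFP counts. The main glucose transporter of most cells, Slc2a1, had 2311 and 8777 ERRγ counts against 2325 and 2514 GFP counts and was not called (adjusted p = 0.217); its level in ERRγ library 1 was below that in either GFP library by count. Slc16a5, a monocarboxylate transporter family gene, had 16 and 20 ERRγ counts against 3 and 1 GFP counts. Slc16a7, which carries lactate and pyruvate, had 30 counts over both ERRγ libraries, and Slc5a11, a sodium-coupled inositol transporter, had 29. In the same family as Slc16a5 and Slc16a7, 2 genes outside the 71 rose. Slc16a1, the widespread lactate transporter, had 791 and 1063 ERRγ counts against 295 and 354 GFP counts (adjusted p = 0.00614 for a log2 fold change of 1.5, SE 0.20). Slc16a6 had 439 and 561 against 230 and 256 (adjusted p = 0.0216 for a log2 fold change of 1.02, SE 0.20). Both calls were lost without GFP library 1 (adjusted p = 0.109 for Slc16a1 and 0.203 for Slc16a6) and without GFP library 2 (0.0799 and 0.172).

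Nerve cell adhesion and the synapse are represented by 5 members. Ncam2 (chr16:81200697-81626828), an adhesion molecule of olfactory axons, had 53 and 69 ERRγ counts against 1 and 1 GFP counts, a ratio of 60.1 (interval 16.2 to 499). Its relative Ncam1 had 1537 and 849 ERRγ counts against 1209 and 998 GFP counts and was not called (adjusted p = 0.928). Pcp4, a calmodulin-binding peptide of Purkinje cells, had 20 and 25 against 2 and 2, and Cdh22, a brain cadherin, had 19 and 22 with no GFP count. St8sia4, which adds polysialic acid to Ncam1, and the synaptic vesicle gene Syn2 had 22 to 27 counts over both ERRγ libraries. Of 28 neuronal markers 10 could be tested and none was called by edgeR, with 4 at an unadjusted p under 0.05 and 1 called by DESeq2. Those 4 (Rbfox3, Nefm, Gad1 and Tubb3) were higher with ERRγ. The median log2 fold change of the 10 was 1.11, against -0.01 over all rows tested. The list summed to 112 and 74.5 CPM with ERRγ, against 54.2 and 41.3 CPM with GFP, with Calb1 at 0 in every library. Nefm alone had 54.6 and 19.5 CPM with ERRγ, against 14.0 and 9.5 CPM with GFP.

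Signalling inside the cell is represented by 9 members. Afap1l2 (chr19:56912361-57008228, minus strand), an adaptor of Src kinases, had 78 and 110 ERRγ counts against 0 and 1 GFP counts, a ratio of 199 with a counting interval of 32.7 to 7317 that reflects the single GFP read. Dusp2 (chr2:127336159-127338376), a nuclear phosphatase that switches off MAP kinases in activated lymphocytes, had 90 and 75 ERRγ counts against 3 and 0 GFP counts, a ratio of 50.3 (interval 18.1 to 264). Its relative Dusp1, a stress-induced phosphatase, had 1153 and 7305 ERRγ counts against 1277 and 1189 GFP counts and was not called (adjusted p = 0.174), and its count in ERRγ library 1 was below both GFP counts. Spsb4, a substrate adaptor of a ubiquitin ligase, had 24 and 53 against 1 and 1. Rasgrf2, a Ras activator of neurons, had 43 and 24 against 4 and 0. Mapk10, the brain stress kinase JNK3, had 17 and 35 ERRγ counts against 2 and 2 GFP counts, and Dusp13, a phosphatase of testis and muscle, had 17 and 20 against 1 and 2. The Wnt pathway inhibitor Nkd1, the kinase gene Stk32a and the RING finger gene Rnf150 had between 24 and 33 counts over both ERRγ libraries.

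The 3 transcriptional regulators had at most 5 GFP counts between both libraries each. Dmbx1 (chr4:115915119-115939926, minus strand), a homeobox factor of the embryonic brain, had 42 and 56 ERRγ counts but no GFP count, which puts it at least 16.1-fold higher. Nkx2-9, a homeobox factor of the ventral neural tube, had 24 and 34 against 3 and 2, at the GFP limit. Cited1 (chrX:102247381-102252181, minus strand), a CBP/p300-binding cofactor of kidney progenitors, had 15 and 60 ERRγ counts and no GFP count, the widest gap between ERRγ libraries among the 71. It was at least 12.6-fold higher with ERRγ, at least 20.6-fold without ERRγ library 1 and at least 4.64-fold without ERRγ library 2.

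Cilia and sperm account for 4 members. Agbl2, an enzyme that trims tubulin tails, had 19 and 31 ERRγ counts against 1 and 2 GFP counts. Txndc2, a thioredoxin of the sperm tail, had 24 and 12 against 1 and 1. Lrrc48, now Drc3, of the dynein regulatory complex, and the sperm gene Fam209 had 26 counts each over both ERRγ libraries. Of 22 testis germ cell markers 11 were at 0 in all 4 libraries, among them Tnp1, Tnp2, Prm2 and Odf1, and of the 2 tested none was called by edgeR or DESeq2, with 1 at an unadjusted p under 0.05. The list summed to 9.89 and 7.10 CPM with ERRγ, against 5.01 and 5.56 CPM with GFP.

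Lce1a1 and Lce1j encode late cornified envelope proteins, small cross-linked proteins of the skin surface, and are given after their values were seen. Lce1a1 had 20 and 14 ERRγ counts and none with GFP, and Lce1j had 14 and 20 against 2 and 2. They lie 140.5 kb apart in the Lce1 cluster of chromosome 3, where other genes of the cluster ranged widely. Lce1f rose, and had 789 and 661 ERRγ counts against 20 and 30 GFP counts. Lce1g had 1842 and 1757 against 349 and 335. Lce1h had 905 and 858 ERRγ counts against 1095 and 1094 GFP counts and was not called (log2 fold change -0.34, SE 0.14, adjusted p = 0.183). Lce1b had 6 and 15 ERRγ counts and Lce1e 7 and 22, against 0 and 0 for Lce1b and 2 and 0 for Lce1e with GFP. Similar sequences in this cluster make the single values uncertain. Of 12 skin and hair markers 4 were tested, with 0 called by edgeR or DESeq2 and 0 at an unadjusted p under 0.05. Krt25, Krt31 and Krt71 were at 0 in every library. The list summed to 88.3 and 33.5 CPM with ERRγ, against 38.4 and 50.8 CPM with GFP. Ivl alone had 69.2 and 9.9 CPM with ERRγ, against 13.9 and 24.6 CPM with GFP.

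A further 6 coding genes belong to no group above. Mreg, melanoregulin, which acts in pigment organelle transport, had 69 and 40 ERRγ counts against 4 and 0 GFP counts. Tmem252 (chr19:24674008-24682233), a transmembrane protein gene, had 51 and 44 against 0 and 2, a ratio of 49.5 (interval 12.5 to 390). Kank4, of a family that links talin to microtubules and actin, had 51 and 29 against 0 and 1. Vpreb3 of precursor B cells, Efcc1 and the retinal thioredoxin-like gene Nxnl2 had 21 to 28 counts over both ERRγ libraries. The last 9 members were counted under provisional symbols or are noncoding. The highest of them, 2010109I03Rik, picked out after its values were seen, had 145 and 115 ERRγ counts against 2 and 1 GFP counts (ratio 82.5, interval 28.7 to 415). The other 8 (Gm10190, Gm4827, 4930546K05Rik, Srrm4os, B930059L03Rik, Gm10941, 1700020D05Rik and AI118078, now Tmem266) had 22 to 87 counts over both ERRγ libraries. Srrm4os runs antisense to Srrm4, a neural splicing factor, which had 27 and 50 ERRγ counts against 8 and 6 GFP counts (adjusted p = 0.0618). Reads of this pair cannot be told apart where strand was not used in counting. In all, at least 10 of the 71 overlap another counted row.

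The counts of the 71 genes in the 2 ERRγ libraries, which differed widely in Esrrg, are given as a description, since the choice of members required at least 10 counts in each and so left out rows high in 1 library alone. The ratio of CPM in ERRγ library 2 to ERRγ library 1 had a median of 1.11 over the 71 and ranged between 0.426 for 4930546K05Rik and 4.43 for Cited1. The median was 0.998 over the 12737 tested rows with at least 21 counts over both ERRγ libraries, the lowest sum among the 71, and a count in each. Of the 71, 3 (4.23%) were over 2-fold higher in library 2, against 3.56% of those rows: Cited1, Spsb4 with a ratio of 2.45 and Mapk10 with 2.28. Over 2-fold higher in library 1 was 1 of the 71 (1.41%), against 4.74% of those rows. Within 1.5-fold lay 46 of the 71 (64.8%), against 80.1% of those rows. Those rows were not matched to the 71 in count level beyond the minimum of 21, and counting error widens ratios at low counts. These shares therefore do not show whether the 71 varied more than other genes. For 62 members the exact 95% binomial interval for the share of counts in library 1 held the 52.54% that equal CPM would give. By these unadjusted intervals, 7 were higher in library 2 (Afap1l2, Gm10190, Spsb4, Cited1, Tnfrsf19, Mapk10 and Aldh3b2) and 2 in library 1 (Mreg and 4930546K05Rik). The share of all rows beyond counting error in this way was not counted. Across the table the 2 ERRγ libraries also differed beyond counting noise (chi-square per degree of freedom 22.6). Nothing particular to the 71 is therefore read from these counts. With only 2 libraries, no relation between Esrrg and these genes could be tested.

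**Figure D4:**
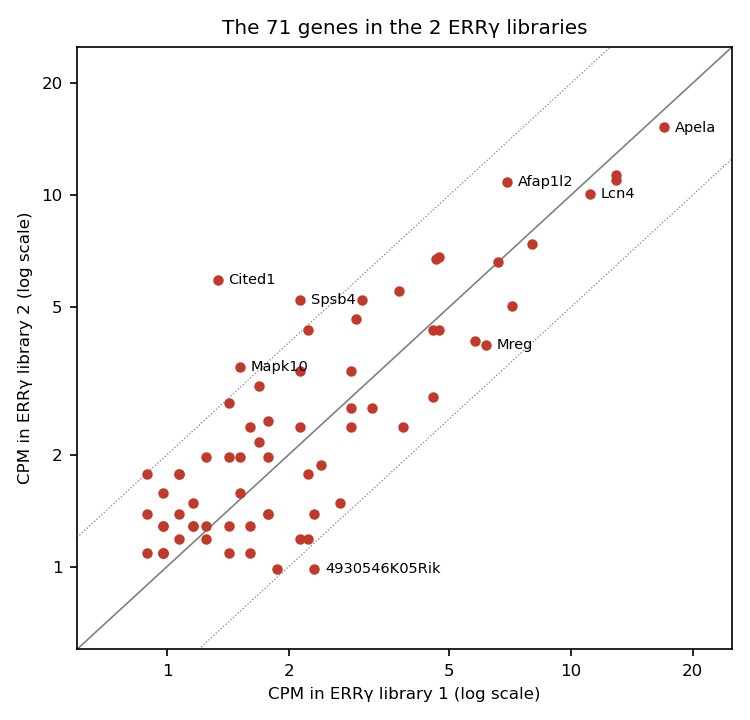
CPM of the 71 genes in ERRγ library 1 (horizontal log axis) and ERRγ library 2 (vertical log axis); the solid line marks equal CPM and the dotted lines a 2-fold difference. Cited1, Spsb4 and Mapk10 lie above the upper dotted line and 4930546K05Rik below the lower one, while 46 of the 71 were within 1.5-fold.

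The 71 genes were spread over 20 chromosomes, with at most 7 on one (chromosome 2). Some lay close to each other or to genes of the families set aside. Gdf3 lies 16.3 kb from Dppa3, a germ cell and oocyte factor with 34 and 46 ERRγ counts and none with GFP, and 117.7 kb from Slc2a3. Tmem252 lies 0.8 kb from Pgm5, a muscle junction protein with 433 and 335 ERRγ counts and none with GFP. Fam209 lies 75.3 kb from Tfap2c, a trophoblast and germ cell factor with 32 and 38 ERRγ counts and none with GFP. The other close pairs among the 71 are the serpin, Hsd3b and Lce1 genes above.

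Genes within 100 kb of the 71 that did not meet the count limits were then examined, a comparison chosen after the data were seen. Among 283 such rows 180 could be tested, around 57 of the 71. Of these 180, 18 rose (10%, against 5.06% of all rows tested) and 1 fell (0.556%, against 1.78%), by edgeR's quasi-likelihood test with Benjamini-Hochberg adjustment. The median log2 fold change was 0.04 in the neighbours and -0.01 over all rows tested. Neighbours in one cluster share a locus and are not independent. The 18 that rose lay near 14 of the 71. Leaving out GFP library 1 kept 6 of these calls and leaving out GFP library 2 kept 7.

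The largest rises were in Lce1f (log2 fold change 4.83, SE 0.21, adjusted p = 5.28e-05) and in Pcolce2, an enhancer of collagen processing that lies 69.6 kb from Paqr9. Pcolce2 had 335 and 258 ERRγ counts against 37 and 23 GFP counts (log2 fold change 3.25, SE 0.32, adjusted p = 0.00167). Chchd10, a mitochondrial intermembrane space protein 5.3 kb from Vpreb3, had 7300 and 7495 ERRγ counts against 1073 and 1287 GFP counts (log2 fold change 2.63, SE 0.15). Gm867, 2.4 kb from Vpreb3, rose by 2.41 (SE 0.15) on the log2 scale, Lce1g by 2.36 (SE 0.15) and Hspb8, a small heat shock protein near Srrm4os, by 1.80 (SE 0.13). These 6 stayed under 0.05 when either GFP library was left out. Acy3, a deacylase next to Aldh3b2, rose by 1.92, and had an adjusted p of 0.0607 when GFP library 1 was left out and 0.0396 when GFP library 2 was. The other 11 lost the call without either GFP library. They include L1td1, an RNA-binding protein of pluripotent cells 16.4 kb from Kank4, with 170 and 95 ERRγ counts against 25 and 14 GFP counts (adjusted p = 0.0130, and 0.0754 and 0.120 without GFP libraries 1 and 2). Apobec1, the mRNA-editing cytidine deaminase 3.0 kb from Gdf3, had 436 and 769 against 205 and 176 (adjusted p = 0.0207, and 0.147 and 0.181). The remaining 9 were BC030870, Sorl1, Bmyc, Agpat2, Fam69b, Eif4ebp1, Stard7, Rab31 and Tcirg1. The gene that fell, Zfp697 near Hsd3b6, had 123 and 79 ERRγ counts against 196 and 212 GFP counts (log2 fold change -1.05, adjusted p = 0.0475), a call that was lost with either GFP library left out.

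**Figure D5:**
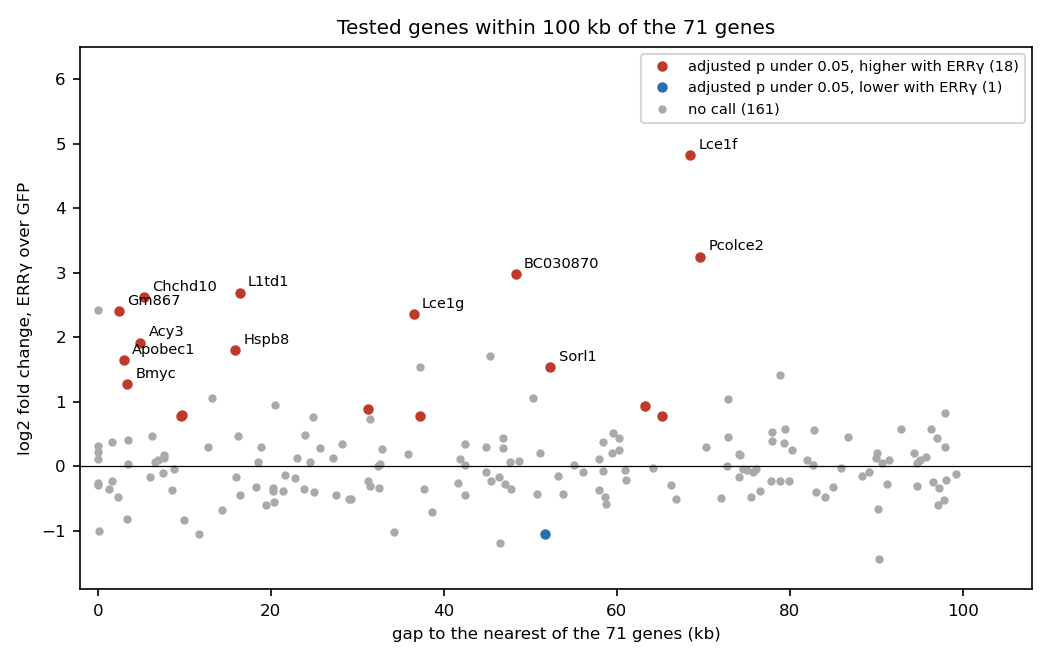
Log2 fold change, ERRγ over GFP, of the 180 tested genes within 100 kb of the 71 genes, against the gap to the nearest of the 71 in kb. The 18 genes that rose lie above 0 at gaps of 2.4 to 69.6 kb, and 161 genes had no call.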

How the data were processed

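Each of the 4 libraries has 1 deposited table of raw read counts per gene symbol, not normalized by the authors to judge by the deposited values, which are whole numbers with unequal totals. The submitters' processing notes name Bowtie2, edgeR and the build mm10 and give no version. For the counter, the annotation, strand use and reads with several matches, nothing is stated in the sources used here; overlapping or near-identical genes may share or lose reads.

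The test across rows was run with edgeR 4.0.16 in R 4.3.3 (filterByExpr with a minimum count of 10, TMM, group alone, glmQLFit and glmQLFTest, two-sided, Benjamini-Hochberg over 13070 rows, threshold 0.05); the SE is the log2 fold change divided by the root of F. The step was tested on simulated data. CPM use TMM library sizes. Transcript-end counts are not divided by length, and levels of different genes were not compared. Ratios are of mean CPM; with no GFP count they are lower bounds at 3 counts in each GFP library, and with 1 to 3 GFP counts they have an exact 95% counting interval. The 40 members with the most ERRγ counts and an established name are given by library, with others by name or range. Positions come from GENCODE M21 (GRCm38, which mm10 names) for 68 members whose symbols matched, and from RefSeq for 3. Alternatives were DESeq2 1.42.0, other scalings, no filter, the replicate number as a block, and each library left out. The members, their roles and the lists were chosen with earlier results of these data known. Libraries of a group differed beyond counting noise (chi-square per degree of freedom 22.6 for ERRγ and 14.3 for GFP), so none was merged.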

Additional observations from a re-analysis of the deposited data

How the results depend on the processing

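Of the 71 genes, 42 were called; leaving out each library gave 7 to 37, the low counts being 7 without GFP library 1 and 9 without GFP library 2. Rows called over the whole table were 894, against 2009 with no filter on low counts and 99 to 2695 with a library left out. Marker genes called were 13, against 56 with no filter, 23 with the replicate block and 2 to 58 with a library left out. Neighbours called were 19, against 39 with no filter, 29 within 200 kb and 6 to 53 with a library left out; distance and these alternatives were chosen after seeing the data. The cause of these shifts was not tested. The number of genes that met the limits was 71, against 17 with a GFP sum of 0, 139 with a GFP sum of at most 10, 231 with at least 5 and 29 with at least 20 counts in both ERRγ libraries, and 87 to 177 when limits were applied with a library left out. Promoters with TNAAGGTCA were 0, against 5 with AAGGTCA. Among the 40 ratios given by library, 13 moved by over 1.5 times without GFP library 1 and 18 without GFP library 2. Deviations of same-numbered libraries were nearly uncorrelated (r = 0.00744 over 13070 rows). With 2 libraries in each group, this cannot show whether the numbers mark a shared animal, culture or batch. With the replicate block 1091 rows, 40 of the 71 and 22 neighbours were called, against 894, 42 and 19 without it. Under DESeq2's test 40 of the 42 called members were called. Counts of 10 to 30 per gene limit what single members show.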
